A study of Homo sapiens with 12 samples.

Results

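The genes described here are the inhibitors of DNA binding ID1, ID2 and ID3, the E proteins TCF3, TCF4 and TCF12, the leukaemia-associated basic helix-loop-helix (bHLH) factors TAL1 and LYL1, and the LIM-only adaptors LMO1 and LMO2. They were taken as the rows of the deposited table whose Ensembl gene identifier maps to these 10 symbols, of 62069 rows in all. The RNA was from CUTLL1, an established human cell line of T-cell leukaemia in which a translocation has rearranged NOTCH1. The labels give 12 poly-A RNA-seq libraries in 4 groups of 3: DMSO solvent for 12 h, 1 µM Compound E for 12 h, DMSO for 48 h and 1 µM Compound E for 48 h. Compound E is an inhibitor of gamma-secretase (GSI), the protease that releases the active part of NOTCH1. All groups share the single cell line, and nothing in the labels says that libraries of a group came from separate cultures, so a p-value here measures the spread between libraries, which may be technical. Levels are normalised read counts, in which the authors scaled each library's reads by its size factor. Recovered depth ran from 73939612 to 160702764 reads a library. Of the 10 genes, 8 reached 10 normalised read counts in 3 or more libraries, the filter used here, and were tested, among 19281 genes. TAL1 and LMO1 did not pass and are given as values only.

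E proteins bind DNA at the E-box, a short motif written CANNTG, as pairs with each other or with a tissue-restricted bHLH factor such as TAL1 or LYL1. ID proteins have the helix-loop-helix surface but lack the basic region that touches DNA, so a pair of an ID protein and an E protein cannot bind the E-box. In developing T cells E proteins drive genes of the pre-T-cell receptor and of receptor gene recombination, and in T-cell leukaemia TAL1 or LYL1, bridged by LMO1 or LMO2 to other factors, can occupy such sites.

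The promoter windows of the 3 ID genes are shown because ID1, described below, was called lower over time under either label. In the main limma fit ID2 was called over time in GSI only, and ID3 under neither label. Some alternative analyses, given below, called ID3 in DMSO. Each window is the 250 bases before the RefSeq start in GRCh38.p14, 5′ to 3′ on the gene's strand, with every match to CANNTG in capitals. ID1 lies on the plus strand at chr20:31605039-31605288, ID2 on the plus strand at chr2:8681806-8682055 and ID3 on the minus strand at chr1:23559502-23559751.
ID1: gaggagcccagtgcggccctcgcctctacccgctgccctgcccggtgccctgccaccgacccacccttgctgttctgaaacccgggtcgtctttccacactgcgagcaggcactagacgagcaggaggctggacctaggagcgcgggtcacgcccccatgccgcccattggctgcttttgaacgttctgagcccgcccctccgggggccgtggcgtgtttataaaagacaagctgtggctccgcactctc
ID2: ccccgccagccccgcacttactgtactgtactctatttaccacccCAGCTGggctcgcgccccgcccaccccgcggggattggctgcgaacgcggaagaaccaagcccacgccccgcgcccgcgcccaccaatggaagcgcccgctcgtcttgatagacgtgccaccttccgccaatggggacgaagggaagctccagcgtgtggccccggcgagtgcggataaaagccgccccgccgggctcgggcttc
ID3: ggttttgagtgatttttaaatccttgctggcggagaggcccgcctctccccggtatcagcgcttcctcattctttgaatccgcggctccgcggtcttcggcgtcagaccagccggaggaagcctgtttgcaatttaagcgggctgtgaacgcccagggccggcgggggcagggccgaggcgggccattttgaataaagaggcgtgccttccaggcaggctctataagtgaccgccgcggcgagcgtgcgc

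The CANNTG motif, searched on both strands, was present 1 time in the ID2 window, as CAGCTG from 205 to 200 bases before the start, and 0 times in the ID1 and ID3 windows. Over all 35116 RefSeq promoter windows of this length, 61.8% held at least 1 match. GCGTG, a form of the core element bound by hypoxia-inducible factors, was found 2 times on either strand in each of the 3 windows. It had no overlap with the ID2 match, and 32.2% of all windows held at least 1. ACGTG, the other form, was found 1 time in ID2 and 0 times in ID1 and ID3, against 18.5% of all windows. The 3 windows held 62% to 69.2% G and C, which these shares do not take into account. TGGGAA, part of the site bound by the NOTCH partner RBPJ, was found on either strand in 0 of the 3, against 20.8% of all windows. A match is a description of letters in the window, and no match says nothing of sites elsewhere. RefSeq windows were matched for 9 of the 10 genes.

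TCF3, ID3 and TCF12 had the highest levels per length, and LYL1, LMO2, TAL1 and LMO1 the lowest. Per kilobase of annotated exon, the median level over the 12 libraries was 6098 for TCF3, 4925 for ID3 and 3018 for TCF12, then 438 for ID1, 51.9 for ID2, 17.4 for TCF4, 7.32 for LYL1, 2.24 for LMO2 and 0.611 for TAL1. TCF3, whose E12 and E47 products cannot be separated in gene-level counts, was above ID3 in 10 of 12 libraries, and ID3 was above TCF12 in 11 of 12. The neighbours TCF3 and ID3 therefore overlapped in range. TCF12, ID1 and ID2 kept this order in 12 of 12 libraries. The place of TCF4 depended on the length used, because its 90 annotated transcripts spread over many exons. With the longest transcript as the length, ID2 was above TCF4 in 5 of 12 libraries instead of 12. LYL1 exceeded LMO2 in 9 of 12.

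LMO1 had 0 reads among 1268773392 recovered over all libraries. Within a single library, a count of 0 allows up to 3 reads, a normalised read count of 1.95 to 4.03 depending on the library, counting error only. Over all 12 libraries together the limit is 3 reads in total, so the level allowed is lower. TAL1 had 49 reads in all. Its normalised read counts were 1.77, 8.99 and 6.19 in the libraries labelled DMSO 12 h and numbered 1, 2 and 3, then 3.89, 3.80 and 0 at GSI 12 h, 3.17, 5.84 and 4.49 at DMSO 48 h, and 2.55, 2.97 and 1.33 at GSI 48 h. These values lie around the 3-read limit, and group totals were 18, 7, 17 and 7 reads in that order, so no fold is given.

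**Figure D1:**
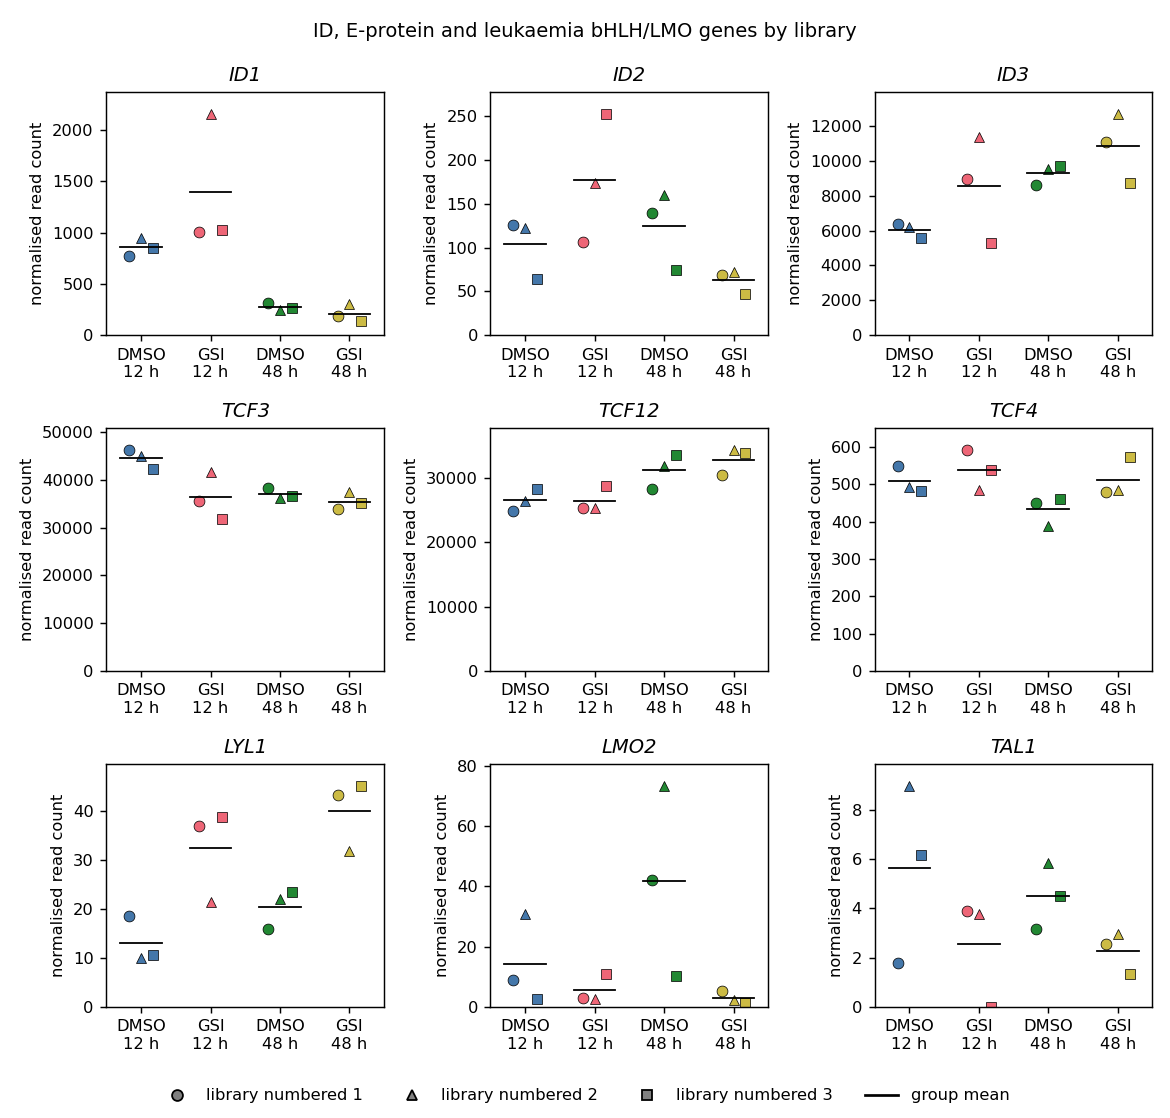
Normalised read count (y axis, linear, from 0) of 9 of the genes in each library, with groups on the x axis, symbols for the library number and a bar for the group mean; LMO1, at 0 in all 12 libraries, is left out. ID1 sits between 772 and 2154 in the 12 h libraries and between 137 and 308 in the 48 h libraries.

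The libraries were of T-lymphoid character. All 11 markers of that list passed the filter, and their summed level ran from 332034 to 394131. Of B-lymphoid markers 1 of 5 passed, CD79A, a signalling chain of the B-cell receptor. The other 4 reached at most 6.33 in any library, and MS4A1 was at 0 throughout. Myeloid markers passed for 3 of 5, ITGAM at 160 to 490 and CD14 and LYZ at most 33.6 and 22.6. Erythroid markers passed for 1 of 5, ALAS2, which reached 10 only in GSI libraries. Stromal or epithelial markers passed for 1 of 6, KRT8, at 11.7 to 36.3. Levels of 16 NOTCH1 target genes served as a check of the labels. Relative to the mean over all libraries, their median log2 level was 0.75 to 1.09 at DMSO 12 h, 0.34 to 0.69 at GSI 12 h, −0.90 to −0.38 at DMSO 48 h and −0.98 to −0.78 at GSI 48 h, so the time labels separated them further than the treatment labels did. Directions below are therefore those of the labels. A list of 26 hypoxia response genes was higher under the GSI label, by a median of 2.30 (log2) at 12 h and 1.51 at 48 h. The GSI libraries numbered 2 stood apart in it, at 0.25 and −0.17 against 1.77 and 1.86 in the other GSI 12 h libraries and 1.23 and 0.68 in the other GSI 48 h libraries. DMSO libraries lay between −1.11 and −0.75.

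ID1, an ID protein known as a target of BMP signalling, fell between 12 and 48 h under either label. Its normalised read counts were 772, 946 and 845 at DMSO 12 h, 1001, 2154 and 1026 at GSI 12 h, 308, 247 and 259 at DMSO 48 h and 188, 304 and 137 at GSI 48 h, for libraries numbered 1, 2 and 3. Every 48 h library was below every 12 h library. In bulk RNA, fewer cells that express a gene and less message per cell cannot be told apart. The fall was 3.15-fold in DMSO (log2 difference −1.65 ± 0.30 SE, limma adjusted p = 0.00649) and 6.53-fold in GSI (−2.71 ± 0.30 SE, limma adjusted p = 0.000138). In each of these comparisons ID1 was called in all 20 alternative analyses. Between treatments ID1 was 0.61 ± 0.30 SE (log2) higher under GSI at 12 h, with no overlap of groups but limma adjusted p = 0.152, and 0.44 ± 0.30 SE lower at 48 h (limma adjusted p = 0.335). Without GSI 12 h number 2, the highest library, the 12 h difference was 0.25 (limma adjusted p = 0.486). The GSI library numbered 2 was, at each time, the highest of its group in ID1 and the lowest in the hypoxia list. The part of that list in the ID1 differences was not tested. At 48 h the pair numbered 2 went the other way, at 0.30 against −0.71 and −0.92, and without GSI 48 h number 2 the difference was −0.75 and not called (limma adjusted p = 0.0908). With GSI 12 h number 2 also left out, which changes only the shared spread here, the same −0.75 was called (limma adjusted p = 0.0131), and without GSI 48 h number 3 the difference was −0.17 (0.777).

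ID2, the ID protein known for its part in innate lymphoid and natural killer cells, was much less abundant. Its normalised read counts were 126, 122 and 63.6 at DMSO 12 h, 107, 173 and 253 at GSI 12 h, 139.6, 159.8 and 74.1 at DMSO 48 h and 68.7, 72.0 and 46.6 at GSI 48 h. The 3 GSI 48 h libraries were all below the GSI 12 h libraries, with a log2 difference of −1.43 ± 0.37 SE (limma adjusted p = 0.0484). That call held in 7 of 20 alternatives, the replicate block among them (limma adjusted p = 0.0286), and was lost on leaving out GSI 12 h number 2 (0.107) or 3 (0.140), GSI 48 h number 1 (0.0998), 2 (0.0786) or 3 (0.186), or number 1 or 2 of either DMSO time (0.0524 to 0.0627). It was lost as well without the filter (0.0632), with only the GSI groups in the fit (0.0658), with upper-quartile scaling (0.0543) and without both GSI libraries numbered 2 (0.163), all limma adjusted p. In DMSO the same interval gave 0.25 ± 0.37 SE (limma adjusted p = 0.839). Between treatments the difference was 0.75 ± 0.37 SE at 12 h, and 0.43 to 1.07 with 1 library left out, and it was −0.94 ± 0.37 SE at 48 h. Neither passed (limma adjusted p = 0.161 and 0.113), although the 48 h groups did not overlap and DESeq2 gave an adjusted p = 0.0480. Antisense ID2-AS1, which overlaps ID2, reached at most 16.4, and reads of the overlap cannot be told apart without strand.

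ID3, the ID protein most tied to T-cell receptor signalling, made up most of the ID message. It had 6405, 6219 and 5578 normalised read counts at DMSO 12 h, 8955, 11392 and 5319 at GSI 12 h, 8638, 9566 and 9702 at DMSO 48 h and 11089, 12697 and 8746 at GSI 48 h. The DMSO groups did not overlap, with 48 h higher by 0.62 ± 0.21 SE (log2; limma adjusted p = 0.132), and with the replicate block this was a rise (limma adjusted p = 0.0391). It was also called by DESeq2 (adjusted p = 0.0475), with only the DMSO groups in the fit (limma adjusted p = 0.00742) and without GSI 12 h number 3, which enters only through the shared spread (0.0175). In GSI the difference over time was 0.39 ± 0.21 SE (limma adjusted p = 0.403). At 12 h ID3 was 0.43 ± 0.21 SE higher under GSI (limma adjusted p = 0.161). The GSI 12 h library numbered 3 was the lowest of all 12, and without it the difference was 0.74 and was called (limma adjusted p = 0.0134). Without GSI 12 h number 2, the highest of its group, it was 0.19 (limma adjusted p = 0.484). At 48 h it was 0.21 ± 0.21 SE (95% interval −0.25 to 0.67). For ID3 too, the GSI library numbered 2 was the highest of its group at each time. Its low place in the hypoxia list was not tested as a part of the ID3 differences.

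TCF3, the E protein also known as E2A, fell under the GSI label at 12 h. It had 46283, 45013 and 42364 normalised read counts at DMSO 12 h, 35561, 41783.5 and 31853 at GSI 12 h, 38311, 36181 and 36726.5 at DMSO 48 h and 33972, 37420.5 and 35115 at GSI 48 h. The 12 h groups did not overlap. The log2 difference at 12 h was −0.30 ± 0.09 SE, a 1.23-fold fall (limma adjusted p = 0.0376). It was not called without the filter (limma adjusted p = 0.0736), with only the 12 h groups in the fit (0.0981) or with upper-quartile scaling (−0.21, 0.105), nor without the GSI 12 h library numbered 1 (0.114) or 3 (0.141), nor without any of the DMSO 12 h libraries (0.0505 to 0.109). At 48 h the difference was −0.06 ± 0.09 SE (95% interval −0.26 to 0.14), with its sign changing under upper-quartile scaling. Over time TCF3 was −0.26 ± 0.09 SE in DMSO (limma adjusted p = 0.143, and 0.0496 with the replicate block) and −0.03 ± 0.09 SE in GSI, where the sign changed with that scaling too. The GSI 12 h library highest in TCF3, numbered 2, was also the lowest of its group in the hypoxia list, and the part of that list in the TCF3 difference was not tested.

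TCF12, known as HEB and the partner of E2A in thymocytes, differed little between treatments. It had 24917, 26401 and 28324 normalised read counts at DMSO 12 h, 25277, 25343 and 28693.5 at GSI 12 h, 28308, 31795.5 and 33609.9 at DMSO 48 h and 30437, 34344 and 33859 at GSI 48 h. The log2 difference between treatments was −0.01 ± 0.09 SE at 12 h (95% interval −0.20 to 0.19), of either sign depending on the scaling, and 0.08 ± 0.09 SE at 48 h (95% interval −0.12 to 0.27). Over time it was 0.23 ± 0.09 SE in DMSO and 0.32 ± 0.09 SE in GSI, higher in 3 of 3 pairs in each. These missed the threshold (limma adjusted p = 0.186 and 0.0759) and passed it with the replicate block (0.0197 and 0.00563). In GSI it also passed with DESeq2 (adjusted p = 0.0315) and upper-quartile scaling (limma adjusted p = 0.0363).

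TCF4, also known as E2-2 and best known for plasmacytoid dendritic cells, had 549, 494 and 483 normalised read counts at DMSO 12 h, 592, 485 and 539 at GSI 12 h, 449.8, 387 and 461 at DMSO 48 h and 479, 485 and 575 at GSI 48 h. No comparison was called in any of the analyses run. The 48 h treatment groups did not overlap, with a log2 difference of 0.24 ± 0.13 SE (95% interval −0.04 to 0.53, limma adjusted p = 0.233).

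LYL1, a bHLH factor whose gene was found at a leukaemia translocation, rose under the GSI label at 12 h from a low level. It had 18.6, 9.99 and 10.6 normalised read counts at DMSO 12 h, 36.9, 21.5 and 39.0 at GSI 12 h, 15.9, 22.1 and 23.6 at DMSO 48 h and 43.3, 31.9 and 45.2 at GSI 48 h. GSI libraries were above DMSO libraries without overlap at each time. The log2 difference at 12 h was 1.26 ± 0.33 SE (95% interval 0.56 to 1.96, limma adjusted p = 0.0176). At 48 h it was 0.94 ± 0.33 SE (95% interval 0.24 to 1.64, limma adjusted p = 0.0792). From pooled reads, 84 against 43 at 12 h and 111 against 75 at 48 h, the ratio was 2.49 (95% interval 1.70 to 3.68) and 1.89 (95% interval 1.40 to 2.57), counting error only. The 12 h call was lost with only the 12 h groups in the fit (0.0532) and on leaving out GSI 12 h number 1 (0.0753) or 3 (0.0661) or DMSO 12 h number 2 (0.0737) or 3 (0.0511), all limma adjusted p. The 48 h difference passed with the replicate block (limma adjusted p = 0.0377) and without both GSI libraries numbered 2 (0.0392), but not without GSI 48 h number 2 alone (0.0623). At each time, the GSI library numbered 2 was lowest both in LYL1 and in the hypoxia list, and the part of that list in the LYL1 difference was not tested. Erythroid ALAS2 was also higher under the GSI label, at 12.7 to 43.3 against 3.37 to 9.72. It reached 10 in 3 libraries of each GSI group and 0 of each DMSO group. ALAS2 thus passed the filter only through the libraries where it was high, and its difference is a description. The globin genes HBB and HBA1 reached at most 2.69 in any library.

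**Figure D2:**
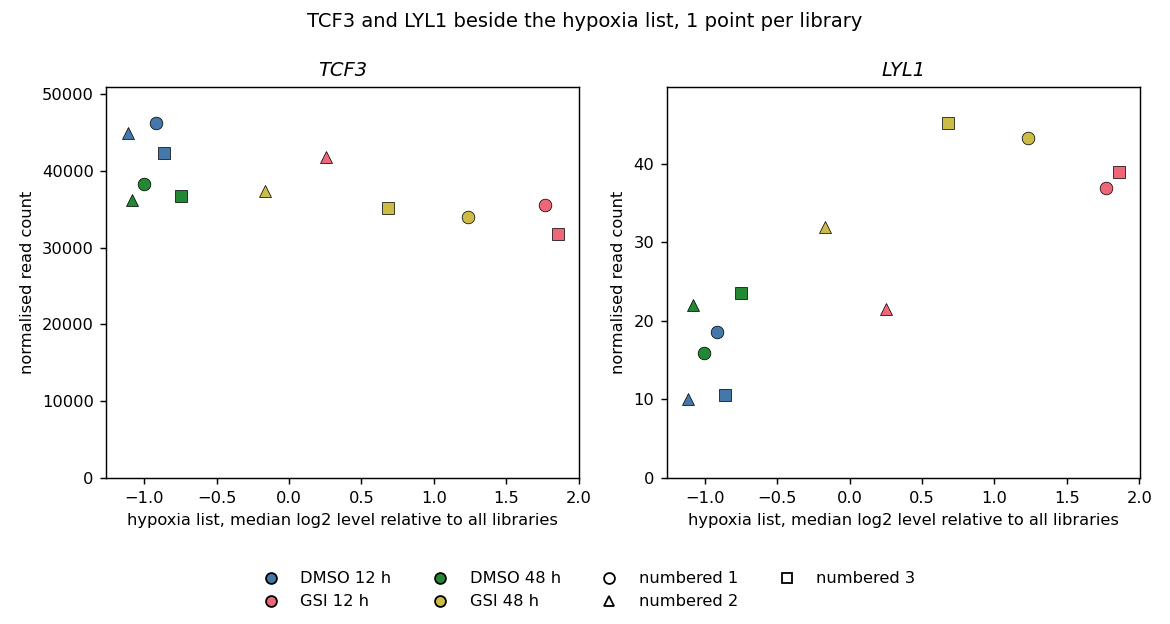
Normalised read count of TCF3 and LYL1 (y axes, linear, from 0) against the median log2 level of 26 hypoxia response genes relative to all libraries (x axis), 1 point per library, coloured by group and shaped by library number. The GSI 12 h library numbered 2 lies at 0.25 on the x axis with 41783.5 for TCF3 and 21.5 for LYL1, between the DMSO 12 h libraries and the other GSI 12 h libraries on each axis.

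LMO2, the adaptor activated by translocation in some T-cell leukaemias, was lower under the GSI label at 48 h. It had 8.85, 31.0 and 2.65 normalised read counts at DMSO 12 h, 2.92, 2.53 and 10.7 at GSI 12 h, 42.0, 73.4 and 10.1 at DMSO 48 h and 5.09, 2.23 and 1.33 at GSI 48 h. DMSO 48 h libraries were above GSI 48 h libraries without overlap, but spread over a wide range. The log2 difference was −3.20 ± 0.82 SE (95% interval −4.96 to −1.44, limma adjusted p = 0.0316). On pooled reads, 8 against 175, the level was 17.1-fold lower (95% interval 8.49 to 40.2, counting error only). The pooled interval leaves out the spread between libraries, and DMSO 48 h number 2 alone gave 113 of the 175 reads. The gene passed the filter through 5 libraries, 3 of them of DMSO 48 h, without which it would not have passed, so the level there brought it into the test. Without the filter the limma adjusted p was 0.0507. The call was also lost on leaving out DMSO 48 h number 1 (0.0896) or 2 (0.120), or GSI 48 h number 1 (0.0876) or 3 (0.126). At 12 h the groups overlapped (−0.94 ± 0.82 SE, limma adjusted p = 0.429). Over time LMO2 was 1.65 ± 0.82 SE (log2) in DMSO, higher in 3 of 3 pairs (limma adjusted p = 0.327), and −0.61 ± 0.82 SE in GSI (limma adjusted p = 0.794). CD79A was high in the same DMSO libraries, at 1867 and 2511 in those of 12 h and 2001 and 3042 in those of 48 h numbered 1 and 2, against 659 and 802 in those numbered 3. It was 846 to 1088 in all GSI libraries, and its relation to LMO2 was not tested.

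Counted over the 8 genes tested, 2 were called between treatments at 12 h, LYL1 higher and TCF3 lower, against 21.5% of all genes (10.1% higher, 11.4% lower). At 48 h 1 was called, LMO2 lower, against 9.68% of all genes (4.33% higher, 5.35% lower), and 2 with the replicate block, against 27.3%. LMO2 entered the test only through DMSO 48 h, the group where it was high, so nothing is read from this count. Over time 1 was called in DMSO, ID1 lower, against 4.53% of all genes (2.03% higher, 2.51% lower), and 4 with the block, against 12.3%. In GSI 2 were called, ID1 and ID2 lower, against 3.98% of all genes (1.62% higher, 2.37% lower), and 3 with the block, against 10.1%. Groups did not overlap for 3, 4, 4 and 3 of the 8 genes in these comparisons, against 36.3%, 35.4%, 24.3% and 19.9% of all genes. At 12 h the share called was near the background. The comparisons share groups, so their counts are not independent.

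**Figure D3:**
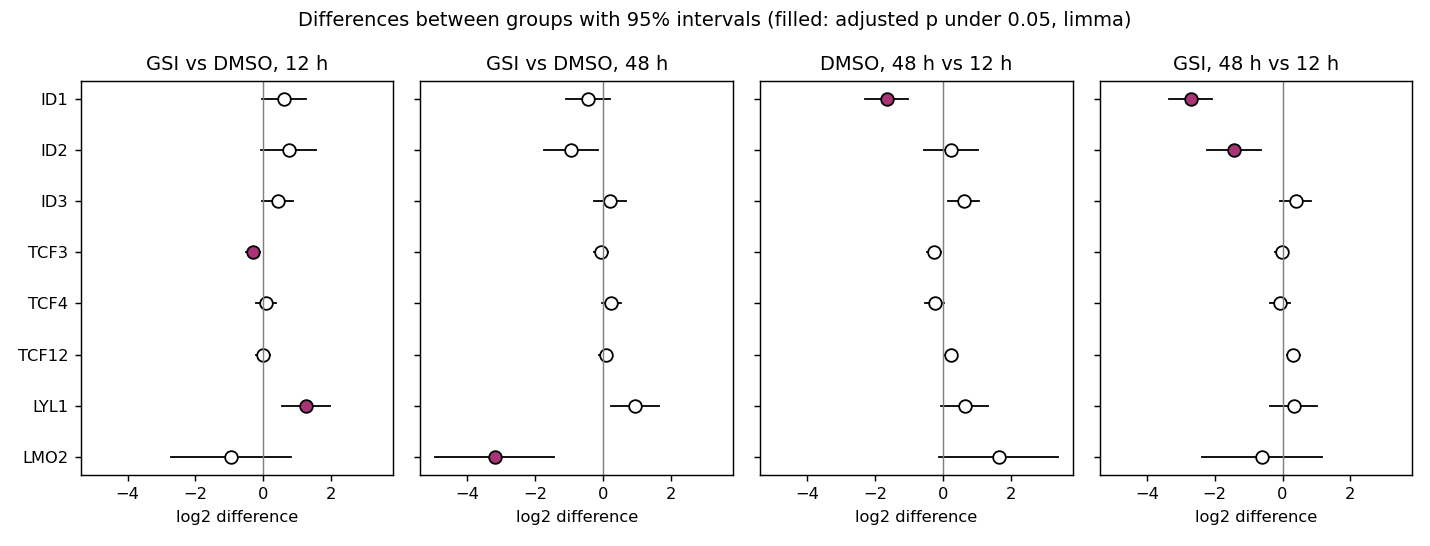
Log2 differences (x axis) of the 8 tested genes with 95% intervals from limma in the 4 comparisons; filled points have an adjusted p under 0.05. ID1 is at −1.65 in DMSO and −2.71 in GSI between 48 and 12 h, while TCF4 and TCF12 lie within 0.32 of 0 in every panel.

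Whether the GSI effect itself changed from 12 to 48 h was tested directly. Limma called 0 of the 8 genes and 0% of all genes, edgeR 0 and DESeq2 0 of the 8. At an unadjusted p under 0.05 there were 2 of the 8, ID2 (−1.68 ± 0.52 SE, log2) and ID1 (−1.05 ± 0.42 SE), against 4.54% of all genes. A change of the GSI effect with time did not pass for any of the 8 genes tested. The widest interval was that of LMO2, −4.75 to 0.24, and the narrowest that of TCF12, −0.19 to 0.36.

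The make-up of the ID message shifted with the time label. Of the summed level per kilobase of ID1, ID2 and ID3, ID1 gave 16.9% ± 1.84 (SD, n = 3) at DMSO 12 h, 18.9% ± 4.31 at GSI 12 h, 4.06% ± 0.711 at DMSO 48 h and 2.66% ± 0.607 at GSI 48 h. ID3 gave 82.0%, 79.6%, 94.9% and 96.9% in the same order of groups. Of the summed E-protein level, TCF12 gave 27.7% ± 2.19 (SD, n = 3), 32.0% ± 4.33, 35.1% ± 2.56 and 37.3% ± 0.870, with TCF3 making nearly all of the rest. The ratio of the summed ID level to the summed E-protein level was 0.405 ± 0.0198 (SD, n = 3) at DMSO 12 h, 0.669 ± 0.191 at GSI 12 h, 0.579 ± 0.0260 at DMSO 48 h and 0.667 ± 0.117 at GSI 48 h. Every DMSO 12 h library was below every other library in this ratio. These sums describe RNA and carry no test.

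**Figure D4:**
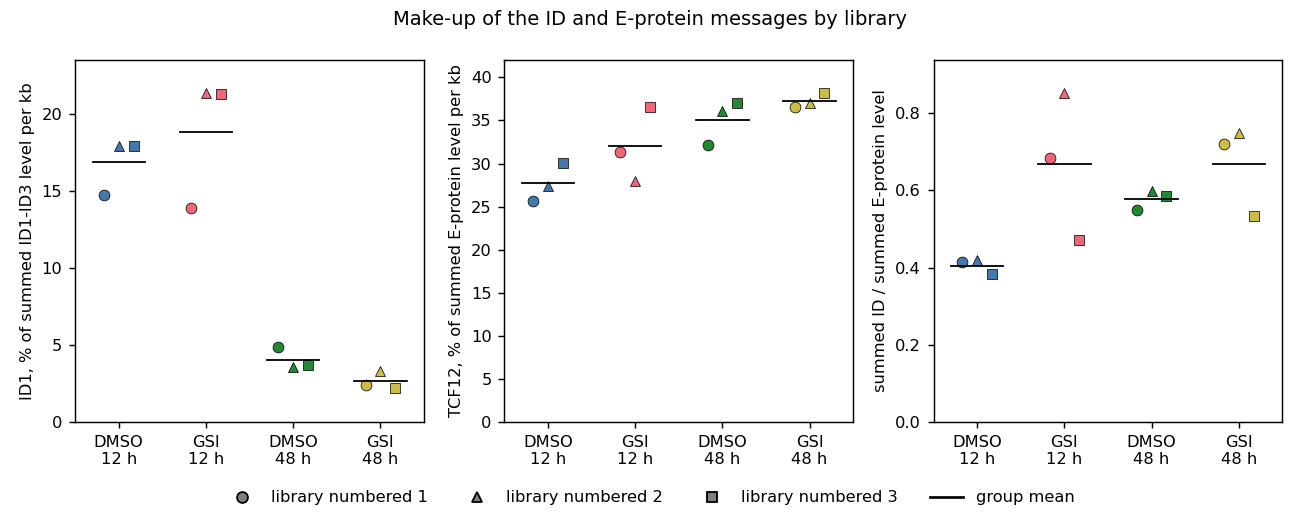
Share of ID1 in the summed ID level per kilobase (left, %), share of TCF12 in the summed E-protein level (middle, %) and ratio of the summed ID to the summed E-protein level (right, no unit), by group, with symbols for library number and bars for group means. ID1 falls from 13.9% to 21.4% in 12 h libraries to 2.22% to 4.88% in 48 h libraries.

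Most genes of a chosen list of relatives were silent. The list held 19 further ID, LMO and tissue-restricted (class II) bHLH genes. Of these 3 passed the filter, and the other 16, ID4 and LMO3 among them, reached at most 2.24 in any library. bHLH genes of other classes were not in the list and were not all silent. HES1 and HES4 had means of 4664 and 24462 at DMSO 12 h. LMO4, a LIM-only gene expressed in many tissues, had 4349 ± 396 normalised read counts (SD, n = 3) at DMSO 12 h, 5165 ± 885 at GSI 12 h, 7942 ± 1783 at DMSO 48 h and 11812 ± 1479 at GSI 48 h. It rose over time in DMSO (log2 difference 0.85 ± 0.16 SE, limma adjusted p = 0.00949) and GSI (1.20 ± 0.16 SE, limma adjusted p = 0.000725), and under GSI at 48 h (0.59 ± 0.16 SE, limma adjusted p = 0.0399). TAL2, a close relative of TAL1, was called lower under GSI at 12 h, at 16.8 ± 5.37 against 4.53 ± 1.64 (log2 difference −1.70 ± 0.46 SE, limma adjusted p = 0.0220). It reached 10 in 3 libraries of DMSO 12 h and 1 other, so it entered the test only through the group where it was high, and the call is a description.

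Among 20 partners and cofactors of the TAL1 and LMO complex, 16 passed the filter. Between treatments 0 rose and 1 fell at 12 h, CBFB, the partner subunit of RUNX proteins (−0.41, log2), and 1 rose and 2 fell at 48 h. The rise was of GATA3, a T-lineage zinc finger factor (0.42), and the falls of the deacetylase HDAC1 (−0.41) and CBFB (−0.36). Over time 3 rose in DMSO and 4 in GSI with 0 falls in each. Over all genes 10.1% rose and 11.4% fell at 12 h, 4.33% and 5.35% at 48 h, 2.03% and 2.51% over time in DMSO, and 1.62% and 2.37% in GSI. GATA3 rose by 0.77 in DMSO and 1.18 in GSI, and RUNX1 by 0.56 in each. List medians stayed near those of all genes, at −0.13, −0.06, 0.0043 and 0.04 for 12 h, 48 h, DMSO over time and GSI over time, where medians of all genes were within 0.0039 of 0.

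Of 20 lymphoid genes known to be regulated by E proteins, in either direction, 19 passed the filter. At 12 h 0 rose and 4 fell under GSI, among them NOTCH1 (−0.67), the recombinase RAG1 (−0.52) and the kinase CDK6 (−0.37), with a list median of −0.14. Over all genes 21.5% were called at 12 h, so this count is near the background. At 48 h 1 rose and 3 fell, with a median of −0.05. The rise was of RAG1 (0.93 ± 0.14 SE, limma adjusted p = 0.00522), from 4171 ± 757 to 7932 ± 1053 (SD, n = 3), and CDK6 (−0.52) and the surrogate light chain IGLL1 (−2.72) were among the falls. Over time 1 rose and 2 fell in DMSO and 4 rose and 3 fell in GSI, with medians of 0.05 and 0.10. Of all genes, 9.68% were called at 48 h, 4.53% over time in DMSO and 3.98% in GSI. PTCRA, the pre-T-cell receptor chain, fell in DMSO (−1.70, log2) and in GSI (−1.63), and NOTCH3, a receptor of the NOTCH family, fell in GSI (−1.42). NOTCH1, NOTCH3, PTCRA and IL7R also belong to the NOTCH1 target list, so they are no separate measure of E-protein activity.

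Of 17 genes known as targets of TAL1 or LMO complexes in leukaemia, 14 passed the filter. GATA3, RUNX1, MYB and CBFA2T3 also stand in the list of partners, and PTCRA in the E-protein and NOTCH1 target lists. The counts of these lists therefore share genes. Between treatments 1 rose and 0 fell at 12 h, 2 rose and 0 fell at 48 h, 3 rose and 1 fell over time in DMSO and 4 rose and 1 fell in GSI, beside 21.5%, 9.68%, 4.53% and 3.98% of all genes called. ARID5B, a chromatin factor of this network, had 1007 ± 151 normalised read counts at DMSO 12 h, 1941 ± 275 at GSI 12 h, 2808 ± 311 at DMSO 48 h and 4370 ± 451 at GSI 48 h (SD, n = 3). It rose in all 4 comparisons, by 0.95, 0.64, 1.48 and 1.17 (log2). List medians were 0.02, 0.28, 0.39 and 0.54. TAL1 and LMO1 themselves were at or near 0 reads in the same libraries.

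Among 21 genes that feed into ID expression or stability, 19 passed the filter. BMP4, a ligand that induces ID1 in many cells, had 12147 ± 1906 normalised read counts at DMSO 12 h, 8629 ± 2344 at GSI 12 h, 3200 ± 768 at DMSO 48 h and 1299 ± 403 at GSI 48 h (SD, n = 3). It fell over time in DMSO (log2 difference −1.94 ± 0.24 SE, limma adjusted p = 0.000546) and in GSI (−2.74 ± 0.24 SE, limma adjusted p = 2.49e-05), and at 48 h it fell under GSI (−1.32). SMAD7, an inhibitor of this pathway, rose under GSI at 12 h (1.25), as did the receptor BMPR2 (0.68), while the receptor BMPR1B was called lower (−2.26). BMPR1B reached 10 in 3 libraries of DMSO 12 h and 1 other, so it entered the test only through the group where it was high. EGR3 and EGR2, zinc finger factors downstream of receptor signalling that act on ID3, rose under GSI at 48 h by 2.46 and 2.80, EGR3 from 13.3 ± 3.69 to 76.8 ± 13.2 (SD, n = 3). In counts, 2 rose and 1 fell at 12 h, 4 rose and 1 fell at 48 h, 1 rose and 2 fell over time in DMSO, and 2 rose and 2 fell in GSI, beside 21.5%, 9.68%, 4.53% and 3.98% of all genes called. List medians were 0.03, 0.0057, −0.01 and 0.02.

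Genes most like each member over the 12 libraries were taken by Pearson's r of log2 levels among genes with a mean of at least 100. The points share libraries and groups, so r is a description. For ID1 they were APCDD1 (r = 0.96), PGPEP1L (0.93) and SLC44A1 (0.93). APCDD1, a membrane inhibitor of Wnt signalling, went from 3499 ± 480 at DMSO 12 h to 1063 ± 239 at DMSO 48 h (SD, n = 3). For ID2 they were PARP8 (0.90), LINC00963 (0.88) and ARHGAP29 (0.87), and for ID3 EBP (0.95), MOSPD3 (0.93) and PITPNM1 (0.93). TCF3 was most like NADK, OGFR and GTPBP3 (0.97, 0.97 and 0.96), TCF12 like STAU2, NEDD1 and NPAT (0.98, 0.96 and 0.94), and TCF4 like SAMD4B and GTPBP1 (each 0.90). LYL1 was most like PNRC1, CAST and HECA (each 0.95), and LMO2 like WIPF1 (0.92) and ARHGAP26 (0.90). Among the members themselves the strongest values were −0.82 for ID1 with TCF12 and −0.81 for TCF3 with LYL1. ID1 and ID3 gave −0.40.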

How the data were processed

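Poly-A RNA-seq of 12 CUTLL1 libraries (4 groups of 3, from the titles) was used. The submitters' processing notes name the build hg19, and as tools HTSeq 0.6.1, TopHat2 2.0.10, DESeq2 and FastQC 0.10.1. How they were set, the annotation and the use of strand were not given in the sources used. The authors deposited a normalised signal. In each library it came in steps of a fixed size, the worth of 1 read (100% of values within 0.01 of a whole step), from which reads were recovered.

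From these, limma 3.58.1 (R 4.3.3, trended prior) was fitted on log2(value + 1) to all 12 libraries with 4 group means, for the 19281 genes at 10 or more in 3 or more libraries, and adjusted by Benjamini-Hochberg over all of them, with calls at adjusted p under 0.05. This scale understates changes of low genes. edgeR 4.0.16 and DESeq2 1.42.0 on recovered reads, another pseudocount, no filter, upper-quartile scaling, only the groups compared, the replicate block and each library left out were alternatives. The methods were tested on simulated data with a single spread for all genes and no effect shared by same-numbered libraries. No gene as low as LYL1 or LMO2 was changed in it, so it does not bear on their calls.

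The main fit held no pairing, so its p-values over time leave out the likeness of same-numbered libraries. The replicate block, which takes it in, is given beside the results where every correlation of their deviations from group means exceeded 0.1. This held over time (0.40 to 0.61) and between treatments at 48 h (0.10 to 0.16). It did not hold at 12 h (0.07 to 0.27), where the block stands only with the alternatives. The ranges at 12 h and 48 h overlap, so the limit separates them only narrowly. Libraries of a group differed by far more than sampling noise.

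The genes and lists were chosen with earlier results of these data known. All 10 genes are named, with up to 3 called genes of smallest p from each list in a comparison (2 where none was called), not all of them printed, and the 3 genes most like each tested gene, some of which are not reported here. Symbols were matched through an identifier table for 39007 of 62069 rows. Exon lengths came from GENCODE 29 and promoter sequences from RefSeq, both on GRCh38, so lengths are approximate for hg19 counts.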

Additional observations from a re-analysis of the deposited data

How the results depend on the processing

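Over 792 alternative values of the 8 tested genes in 5 comparisons, 732 kept their direction and side of the threshold. Of the rest, 31 lost and 14 gained a call, and 15 changed sign, none of these 15 called. Many of the 792 had little room to move, since leaving out a library of a group not compared leaves the difference unchanged. Only main calls could be lost. TCF3 and LYL1 at 12 h held in 12 and 15 of 20 alternatives, and LMO2 at 48 h in 15. Over time ID1 held in 20 under each label, and ID2 in GSI in 7. The number of the 8 genes called between treatments at 12 h, 2, became 1 without a filter, 0 with only the groups compared and 1 with upper-quartile scaling; at 48 h, 1 became 0 without a filter, 2 with the replicate block, 2 with DESeq2 and 3 without both GSI libraries numbered 2, a setting chosen after seeing the data. Over time in DMSO, 1 became 2 with only the groups compared, 4 with the replicate block and 2 with DESeq2; in GSI, 2 became 1 without a filter, 1 with only the groups compared and 1 without both GSI libraries numbered 2. With upper-quartile scaling it stayed 2, with ID2 lost (limma adjusted p = 0.0543) and TCF12 gained (0.0363). Leaving out 1 library gave 0 to 2, 0 to 1, 1 to 2 and 1 to 2, and 0 to 0 for the change of the effect. The replicate block changed no other call of the 8 genes than those given beside the results. At 12 h the block left both calls, TCF3 and LYL1, past the threshold. The cause of these shifts was not tested.

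Sign changes were of small values. TCF12 at 12 h became 0.0102 (edgeR), 0.00215 (DESeq2), 0.0820 (upper-quartile scaling) and 0.0227 (without both GSI libraries numbered 2), and ran from −0.0669 to 0.0412 with 1 library left out. With upper-quartile scaling TCF3 became 0.0263 at 48 h and 0.00893 over time in GSI. The latter was 0.0374 without both GSI libraries numbered 2, and −0.120 to 0.0759 with 1 left out. With 1 left out, TCF4 over time in GSI ran from −0.154 to 0.00046, ID2 over time in DMSO from −0.0645 to 0.586, and the change of the ID3 effect from −0.531 to 0.0180.

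Over all genes, calls at 12 h (4144) were 2607 with only the groups compared, 6951 with the replicate block and 1599 to 5662 with 1 library left out. At 48 h (1866) they were 1075 without a filter, 5261 with the block, 3231 with DESeq2, 4042 without both GSI libraries numbered 2 and 119 to 3036 with 1 left out. Over time in DMSO (874) they were 2368 with the block, 1568 with DESeq2 and 353 to 1066 with 1 left out, and in GSI (768) 477 with only the groups compared, 1941 with the block, 1257 with DESeq2, 427 without both GSI libraries numbered 2 and 443 to 737 with 1 left out. For the change of the effect (0) they were 40 with the block, 62 with DESeq2, 1 without both GSI libraries numbered 2 and 0 to 4 with 1 left out. LYL1, LMO2 and TAL1 rest on 313, 240 and 49 reads in all, which limits their precision.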
